A study of Mus musculus with 50 samples.

Results

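The clustered protocadherins are the Pcdha, Pcdhb and Pcdhg genes, taken here as every row of the expression tables whose symbol begins with Pcdha, Pcdhb or Pcdhg followed by its number in the cluster. They numbered 59 of the 24412 rows of a knockout table and the same 59 of the 24413 rows of a Tet-on-Dux table. They comprised 12 Pcdha genes, 22 Pcdhb genes, 19 Pcdhga and Pcdhgb genes, 5 C-type genes (Pcdhac1, Pcdhac2, Pcdhgc3, Pcdhgc4 and Pcdhgc5) and the read-through row Pcdha7-g. RefSeq for GRCm38 held 58 by symbol and 1 by synonym, all on chromosome 18. The alpha cluster lay at 36930285 to 37188897, the beta cluster at 37264998 to 37521419 and the gamma cluster at 37661775 to 37841873, in that order along the forward strand.

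Protocadherins of the clusters are cell surface adhesion proteins of the cadherin family. Each alpha and gamma gene has a variable first exon with its own promoter, which is spliced to constant exons shared by all genes of that cluster, whereas beta genes are made of their own exon alone. In neurons each cell uses a small and largely random set of the promoters, in contact through CTCF and cohesin with distant enhancers, and the combination marks the cell's identity in self-recognition. The C-type promoters are used by most neurons and Pcdhgc3 is also widely used outside the nervous system. Setdb1, an enzyme that trimethylates H3K9, and Smchd1 are known to restrain the locus in mouse tissues.

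Messenger RNA was sequenced from mouse embryonic stem cells of the TT2 strain, to compare cells that lack H3K9 methyltransferases with cells that have them. The knockout table held 9 groups of 2 libraries each: Dux-KO:G9a;Suv39h1/2;Setdb1-QKO (here Dux-KO QKO), G9a;Suv39h1/2;Setdb1-QKO (here QKO), G9a;Suv39h1/2-TKO, G9a;Setdb1-DKO, G9a-KO, Suv39h1/2;Setdb1-TKO, Suv39h1/2-DKO, Setdb1-KO and control. The Tet-on-Dux table held 8 of these genotypes, all but Dux-KO QKO, in lines that are all labelled Tet-on-Dux:Dux-KO, control included, so that they share the transgene and the loss of endogenous Dux. Dux is the transcription factor that turns on genes of the 2-cell embryo, and the transgene answers to doxycycline. Each line had 2 libraries without doxycycline and 2 with it, at a label of 0.2 for control and Setdb1-KO and of 1 for the other 6 genotypes, with no unit given. Titles of all groups without Setdb1 carry OHT and all others NT, so that whatever OHT stands for and the loss of Setdb1 cannot be told apart. The titles name 1 parental line behind each pair of groups with and without Setdb1. Other comparisons, such as G9a-KO against control or Dux-KO QKO against QKO, are between lines of different names. In those, genotype and line cannot be told apart. Nothing says that the libraries of a group came from separate cultures, so p-values measure the spread between libraries, which may be technical.

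The values are TPM, an abundance scaled to the same total in each library, which corrects for transcript length. The read depth behind them is unknown, and libraries had 11740 to 13274 genes at 1 TPM or more. Setdb1 RNA was 28.9 and 26.8 TPM in QKO and 19.8 and 26.0 TPM in Setdb1-KO, against 48.8 and 53.2 TPM in control. G9a (Ehmt2) was 17.7 and 16.7 TPM in QKO, against 83.6 and 91.1 TPM in control, and Dux was listed at 0 in both Dux-KO QKO libraries. The 10 embryonic stem cell markers summed to between 6600 and 14872 TPM over the knockout libraries, and all of them reached 1 TPM in some library. Of 20 neural markers, 9 never reached 1 TPM in either table. The tables were normalised separately and are not compared library by library.

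Alpha and beta protocadherins were close to silent in every group, and the signal of the locus came from the gamma cluster. None of the 12 Pcdha genes and none of the 22 Pcdhb genes reached 1 TPM in any of the 50 libraries. In the knockout table, 80.1% of the Pcdha values and 63.4% of the Pcdhb values were listed at 0. The highest Pcdhb value was 0.37 TPM (Pcdhb9, QKO) and the highest Pcdha value was 0.25 TPM (Pcdha1, Dux-KO QKO). The most abundant Pcdhb gene was Pcdhb22, with a lowest, median and highest value of 0.024, 0.103 and 0.253 TPM over the 18 knockout libraries. The most abundant Pcdha gene there, Pcdha5, was listed at 0 in 10 of 18 libraries and reached at most 0.125 TPM. In the Tet-on-Dux libraries, 90.1% of Pcdha and 85.7% of Pcdhb values were 0, Pcdhb22 peaked at 0.199 TPM, and Pcdha1, the most abundant Pcdha gene, was at 0 in 26 of 32 libraries. Pcdha7-g, annotated as running from the alpha into the gamma cluster, was 0 in 16 of 18 and in 26 of 32 libraries.

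The gamma genes were low but measurable. Over the 18 knockout libraries their summed level ranged from 23.2 to 40.0 TPM with a median of 28.4 TPM, against at most 0.911 TPM for the summed beta genes and 0.552 TPM for the summed alpha genes. Pcdhgc3 led every other member, with a lowest, median and highest value of 5.48, 9.96 and 24.2 TPM. It was followed by Pcdhga1, at 1.35, 3.39 and 4.70 TPM, the first gene of the cluster. Pcdhga11 and Pcdhga12, near the end of the A and B array, came next, with group means of at most 4.16 and 2.80 TPM. The neighbouring C-type genes Pcdhgc4 and Pcdhgc5 peaked at 0.307 and 0.387 TPM in the knockout libraries, Pcdhac1 was listed at 0 in 17 of 18 of them and Pcdhac2 peaked at 0.109 TPM. In GENCODE, bases also covered by exons of another member, such as the constant exons, made up 41.7% to 66.8% of a gamma transcript. They made up 44.6% to 59.0% of an alpha transcript. The 66.8% was that of Pcdhga4, with 3157 shared bases beside a median of 2119 over the gamma genes. How the authors' counting divided reads from shared bases among the genes is not given. The value of any 1 alpha or gamma gene is therefore less certain than the sum over its cluster.

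**Figure D1:**
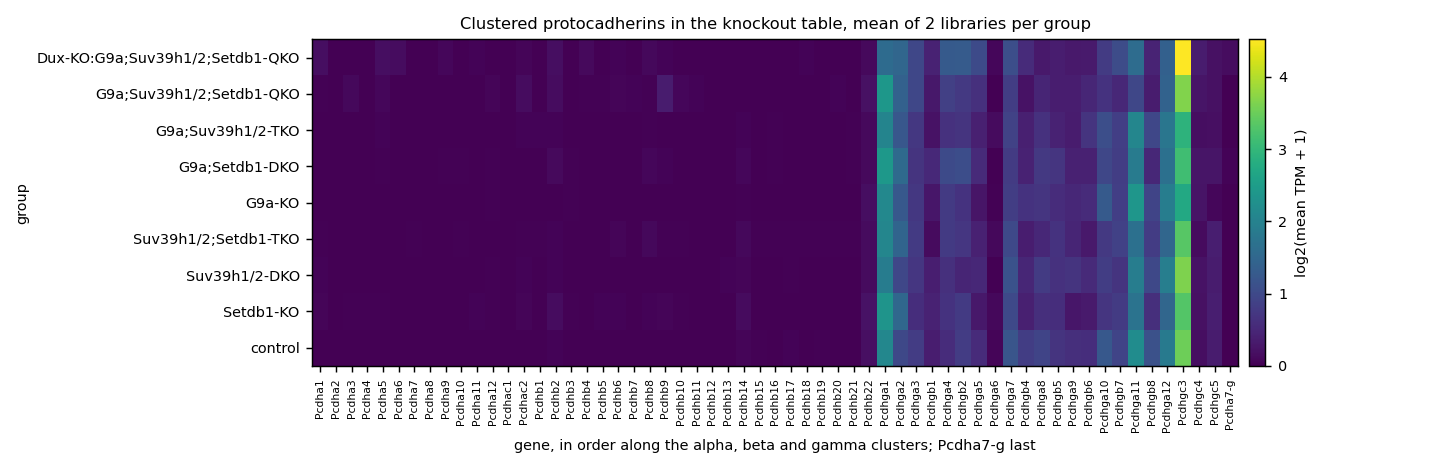
Mean TPM of all 59 members, as log2(mean TPM + 1), in the 9 groups of the knockout table, with control at the bottom and genes in order along the clusters. The alpha and beta clusters are dark throughout, no member of them having reached 1 TPM, and Pcdhgc3, Pcdhga1, Pcdhga11 and Pcdhga12 form the bright columns of the gamma cluster.

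Members were tested with all genes in limma on log2(TPM+1), which understates changes of low genes such as these. A gene had to reach 1 TPM in at least 2 libraries of its table, which 12 members did in the knockout table (11 Pcdhga and Pcdhgb genes and Pcdhgc3) and 8 in the Tet-on-Dux table (7 and Pcdhgc3). Of these, 4 in the knockout table and 2 in the Tet-on-Dux table would have failed without 1 of their groups. In the knockout table Pcdhga4 and Pcdhgb2 passed through Dux-KO QKO, Pcdhgb8 through control, and Pcdhga3 through 1 library of QKO and 1 of Dux-KO QKO. A difference of these genes that involves the group they passed through was favoured by the filter, and their values are given as a description. The other 47 and 51 members are given by their levels. A member was called, and is said below to have risen or fallen, when its adjusted p was under 0.05 and its log2 fold change was 1 or more in either direction. Those past the adjusted p alone are given by their values.

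Against control, 1 of the 12 tested members was called in QKO and 0 in each other genotype. The counts at an unadjusted p below 0.05 were 4 in Setdb1-KO, 1 in Suv39h1/2-DKO, 3 in Suv39h1/2;Setdb1-TKO, 1 in G9a-KO, 5 in G9a;Setdb1-DKO, 1 in G9a;Suv39h1/2-TKO, 5 in QKO and 8 in Dux-KO QKO. The background, the share of all 13862 tested genes called in either direction, was 6.28% in Setdb1-KO, 0.541% in Suv39h1/2-DKO, 6.99% in Suv39h1/2;Setdb1-TKO, 9.26% in G9a-KO, 14.4% in G9a;Setdb1-DKO, 6.72% in G9a;Suv39h1/2-TKO, 15.6% in QKO and 21.2% in Dux-KO QKO. The members' count of calls was thus at or below the background throughout. The share of all genes at an unadjusted p below 0.05 was not counted, here or below. The unadjusted counts therefore have no background. By the adjusted p alone, 2, 0, 2, 1, 2, 1, 5 and 8 of the 12 members passed in the same order of genotypes. Without the 4 genes that passed the filter through 1 group, the counts were 2, 0, 2, 1, 0, 1, 4 and 5 of 8. The background of that looser rule was 34.1%, 2.18%, 31.5%, 34.9%, 48%, 27.1%, 53.3% and 55.6%. The median log2 fold change of the tested members was between -0.21 in QKO and 0.01 in Dux-KO QKO, beside medians of all genes of -0.05 and 0.15 in those comparisons.

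Pcdhga11 was the member that fell. This A-type gamma protocadherin (chromosome 18, 37755773 to 37841873, including the constant exons) was at 0.79 and 1.08 TPM in QKO, against 3.35 and 3.79 TPM in control. Its log2 fold change was -1.24 (SE 0.16, adjusted p = 1.7e-05, limma). It was also lower than in the matched line that keeps Setdb1, G9a;Suv39h1/2-TKO, which had 2.92 and 3.51 TPM, by a log2 fold change of -1.12 (SE 0.16, adjusted p = 7.5e-05, limma). The QKO libraries lay below all 16 others of the knockout table. Intermediate values were found in Setdb1-KO (1.82 and 2.77 TPM) and in Suv39h1/2;Setdb1-TKO (2.19 and 2.14 TPM), with adjusted p of 0.032 and 0.022 against control (limma) and log2 fold changes of -0.48 and -0.53, short of the threshold. The highest libraries were those of G9a-KO, with 4.46 and 3.86 TPM, against which G9a;Setdb1-DKO had 2.48 and 2.92 TPM (log2 fold change -0.48, adjusted p = 0.042, limma). In each of the 4 pairs of lines, both libraries without Setdb1 were below both with it, although Suv39h1/2;Setdb1-TKO against Suv39h1/2-DKO, which had 2.45 and 3.09 TPM, did not pass the test (adjusted p = 0.30, limma). How many of all genes were likewise separated in the 4 pairs was not counted. As a share of the gamma sum Pcdhga11 made up 2.65% and 4.38% in QKO, against 10.3% and 11.9% in control, while the gamma sum itself was 29.8 and 24.7 TPM in QKO, against 32.6 and 31.7 TPM in control.

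**Figure D2:**
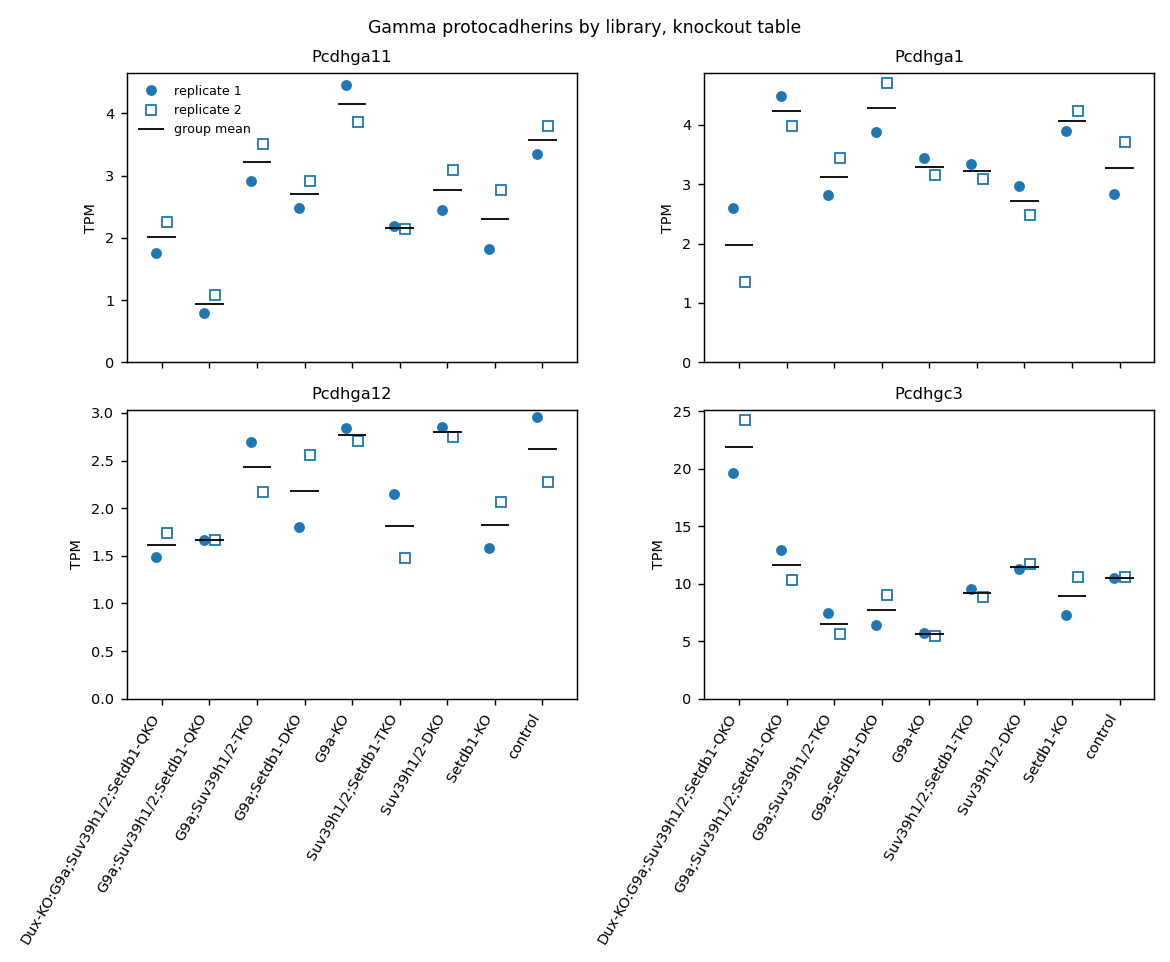
TPM of Pcdhga11, Pcdhga1, Pcdhga12 and Pcdhgc3 in the 2 libraries of each group of the knockout table (symbols) with the group mean (line), control at the right. Pcdhga11 is lowest in QKO at 0.79 and 1.08 TPM, Pcdhga1 is lowest in Dux-KO QKO at 2.60 and 1.35 TPM, and Pcdhgc3 is highest in Dux-KO QKO at 19.6 and 24.2 TPM.

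The neighbours of Pcdhga11 at the same end of the A and B array also had lower values in QKO, without reaching the fold threshold. They are named here after their values were seen. Pcdhgb8 was 0.35 and 0.18 TPM in QKO, against 1.12 and 1.21 TPM in control (log2 fold change -0.78), a description, since it was tested through its control values. Pcdhga10 was 0.69 and 0.46 TPM in QKO, against 1.24 and 1.5 TPM in control (log2 fold change -0.59, adjusted p = 0.012, limma). Pcdhga12 was 1.66 TPM in each QKO library, against 2.96 and 2.28 TPM in control (log2 fold change -0.44, adjusted p = 0.032, limma). Pcdhgb7 was 0.47 and 0.37 TPM in QKO, against 0.97 and 0.84 TPM in control (log2 fold change -0.43, adjusted p = 0.046, limma). The QKO and control libraries did not overlap in these genes, but the share of all genes without overlap was not counted. Of all tested genes, 53.3% passed the adjusted p in this comparison. Pcdhga10 was lower in Setdb1-KO as well, with 0.48 and 0.74 TPM (log2 fold change -0.56, adjusted p = 0.026, limma). These genes carry the same constant exons, so their values are not independent of one another.

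At the other end of the array, Pcdhga1 and Pcdhga2 had means above control in several genotypes without Setdb1, none passing the test. Pcdhga1 was 3.90 and 4.23 TPM in Setdb1-KO, 3.88 and 4.70 TPM in G9a;Setdb1-DKO and 4.49 and 3.99 TPM in QKO, against 2.83 and 3.72 TPM in control. The libraries did not overlap with control in any of these 3, yet the adjusted p was 0.3, 0.17 and 0.18 (limma). The share of all genes without such overlap was not counted. Pcdhga2 was 1.97 and 1.76 TPM in Setdb1-KO, 1.85 and 1.64 TPM in Suv39h1/2;Setdb1-TKO and 1.96 TPM in each G9a;Setdb1-DKO library, against 0.83 and 1.11 TPM in control. Its adjusted p was 0.13, 0.19 and 0.081 (limma), and the log2 fold changes were 0.54, 0.48 and 0.59. Suv39h1/2;Setdb1-TKO had 3.35 and 3.09 TPM of Pcdhga1, within the range of the control libraries. Pcdhga2 in QKO was 2.13 and 1.19 TPM. With Setdb1 kept, it was 1.09 and 1.62 TPM in G9a-KO and 1.51 and 1.20 TPM in G9a;Suv39h1/2-TKO, with means above control too. In Suv39h1/2-DKO it was 0.80 and 1.09 TPM. The next gene, Pcdhga3, had a mean of 0.74 TPM in control and lower means in 3 genotypes without Setdb1. These were 0.51 TPM in Setdb1-KO, 0.70 TPM in Suv39h1/2;Setdb1-TKO and 0.60 TPM in G9a;Setdb1-DKO, while QKO had 0.95 TPM. Genotypes that keep Setdb1 were below control as well, at 0.65 TPM in Suv39h1/2-DKO and 0.66 TPM in G9a-KO and in G9a;Suv39h1/2-TKO.

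Ordered along the cluster, the log2 fold changes of the 19 A and B genes ran from higher to lower in the 4 comparisons of lines without and with Setdb1 in the knockout table. Fitted without the filter on low values, Spearman's rho between position and log2 fold change was -0.78 in Setdb1-KO against control and -0.57 in Suv39h1/2;Setdb1-TKO against Suv39h1/2-DKO. It was -0.78 in G9a;Setdb1-DKO against G9a-KO and -0.91 in QKO against G9a;Suv39h1/2-TKO. For the genotypes that keep Setdb1, each against control, rho was -0.12 in Suv39h1/2-DKO, -0.08 in G9a-KO and -0.28 in G9a;Suv39h1/2-TKO. Over the 11 tested A and B genes alone G9a;Suv39h1/2-TKO had -0.62, against -0.06 in Suv39h1/2-DKO and -0.25 in G9a-KO. These 11 include the 4 genes that passed the filter through 1 group. Among them is Pcdhgb8, near the end of the array, whose lower values against control were favoured by the filter. These are descriptions over 19 genes that share exons and libraries, with no test, and Setdb1-KO, G9a-KO and the other single comparisons share the control libraries. The last 5 genes, Pcdhga10 to Pcdhga12, had a median log2 fold change of -0.44 in QKO against G9a;Suv39h1/2-TKO and of -0.28 in G9a;Setdb1-DKO against G9a-KO. It was -0.48 in Setdb1-KO against control and -0.17 in Suv39h1/2;Setdb1-TKO against Suv39h1/2-DKO. In the same order 5, 5, 5 and 4 of the 5 were below 0. The first 3 genes had medians of 0.23, 0.30, 0.25 and 0.18, with 3, 2, 2 and 3 of the 3 above 0. In the Tet-on-Dux lines without doxycycline the same 4 steps gave rho of -0.04, 0.09, -0.06 and -0.22, none of them as steep. With against without doxycycline, rho was -0.50 in G9a-KO, which keeps Setdb1, and -0.61 in G9a;Setdb1-DKO. These were the steepest of the 8 lines, and the others ran from -0.13 to -0.37. Over the 7 tested genes rho was -0.89 and -0.86 in these lines. Among the 7, Pcdhgb2 passed the filter through 1 library of G9a-KO with doxycycline and 1 of G9a;Setdb1-DKO without. Its difference was thus favoured by the filter in both lines.

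**Figure D3:**
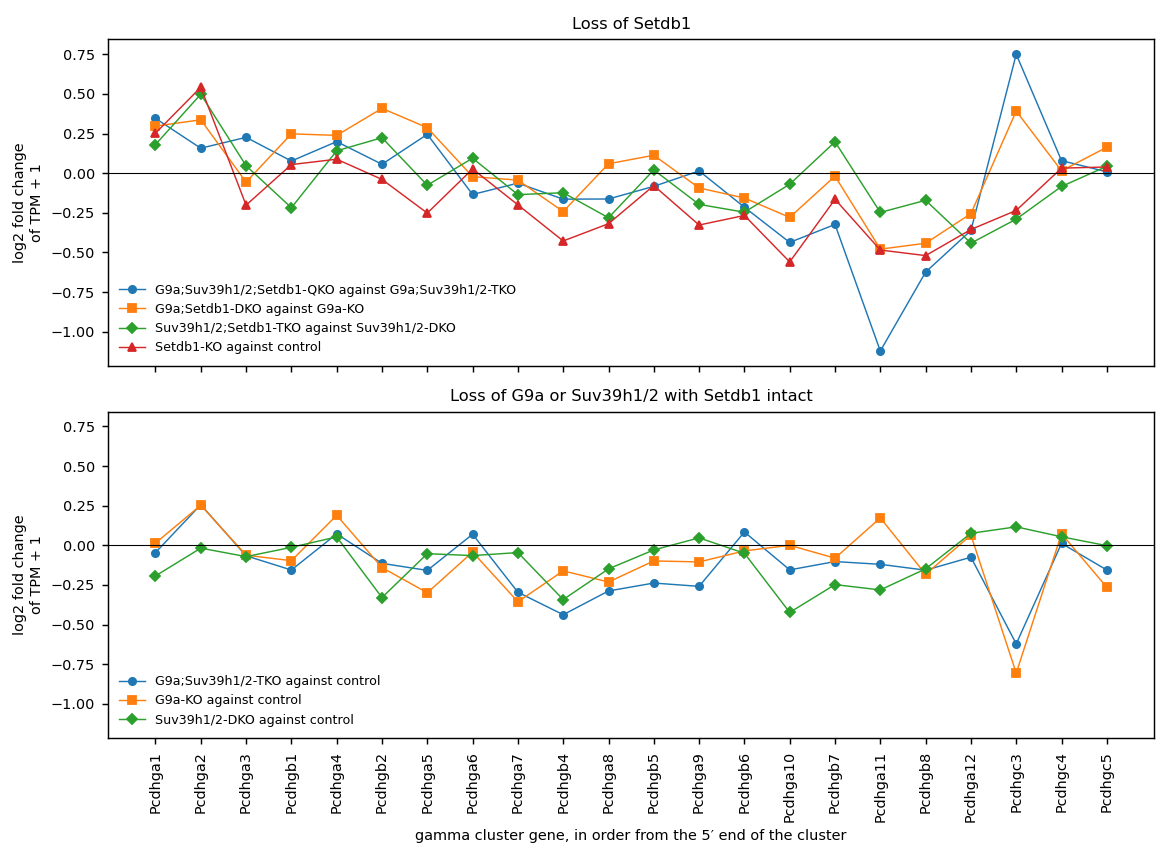
Log2 fold change of TPM + 1 for the 22 gamma genes in order along the cluster, from a fit with no filter on low values. The top panel has the 4 comparisons of lines without and with Setdb1 and the bottom panel the 3 genotypes that keep Setdb1 against control. In the top panel the lines slope from Pcdhga1 and Pcdhga2, above 0, to Pcdhga11, at -1.12 in QKO against G9a;Suv39h1/2-TKO, and Pcdhgc3 is at 0.75 in that comparison.

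Pcdhgc3, the C-type gene with the highest level, had its lowest group means in G9a-KO and G9a;Suv39h1/2-TKO. It was 5.71 and 5.48 TPM in G9a-KO, against 10.50 and 10.56 TPM in control (log2 fold change -0.81, SE 0.19, adjusted p = 0.0037, limma). It was 7.46 and 5.63 TPM in G9a;Suv39h1/2-TKO (log2 fold change -0.62, adjusted p = 0.023, limma). Neither difference reached the fold threshold. In QKO it was 12.98 and 10.35 TPM, above the G9a;Suv39h1/2-TKO libraries by a log2 fold change of 0.75 (adjusted p = 0.0054, limma). In Setdb1-KO it was 7.25 and 10.62 TPM, which overlap with control. The difference between lines without and with Setdb1 was greater in the G9a;Suv39h1/2-TKO background than in the control background by 0.99 on the log2 scale (SE 0.27, adjusted p = 0.024, limma). That passed the adjusted p but not the fold threshold, and no member was called in it or in the other 2 tests of this kind. At an unadjusted p below 0.05 these had 2 members with G9a and Suv39h1/2 loss, 1 with G9a loss and 0 with Suv39h1/2 loss. The backgrounds of calls were 5.48%, 4.18% and 0.166%, and 13.2% for the adjusted p alone in the first. Markers of primitive endoderm and trophoblast, 12 genes in all, summed to 389 and 359 TPM in G9a-KO and to 414 and 388 TPM in G9a;Suv39h1/2-TKO and to 127 and 112 TPM in QKO, against 74.3 and 70.6 TPM in control. Their part in the Pcdhgc3 values was not tested. In bulk RNA, fewer cells that express a gene and less RNA per cell cannot be told apart.

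The matched steps gave similar counts. Loss of Setdb1 was set against the same background genotype in Suv39h1/2;Setdb1-TKO against Suv39h1/2-DKO, in G9a;Setdb1-DKO against G9a-KO and in QKO against G9a;Suv39h1/2-TKO. They called 0, 0 and 1 of the 12 members, with 1, 2 and 5 at an unadjusted p below 0.05 (limma). The backgrounds of calls were 6.41%, 5.43% and 9.1%. By the adjusted p alone 0, 1 and 3 members passed, beside backgrounds of 27.2%, 25.9% and 41.8%. The 3 in QKO were Pcdhga11 and Pcdhgb8, lower, and Pcdhgc3, higher. Pcdhgb8 is among the 4 genes that passed the filter through 1 group.

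**Figure D4:**
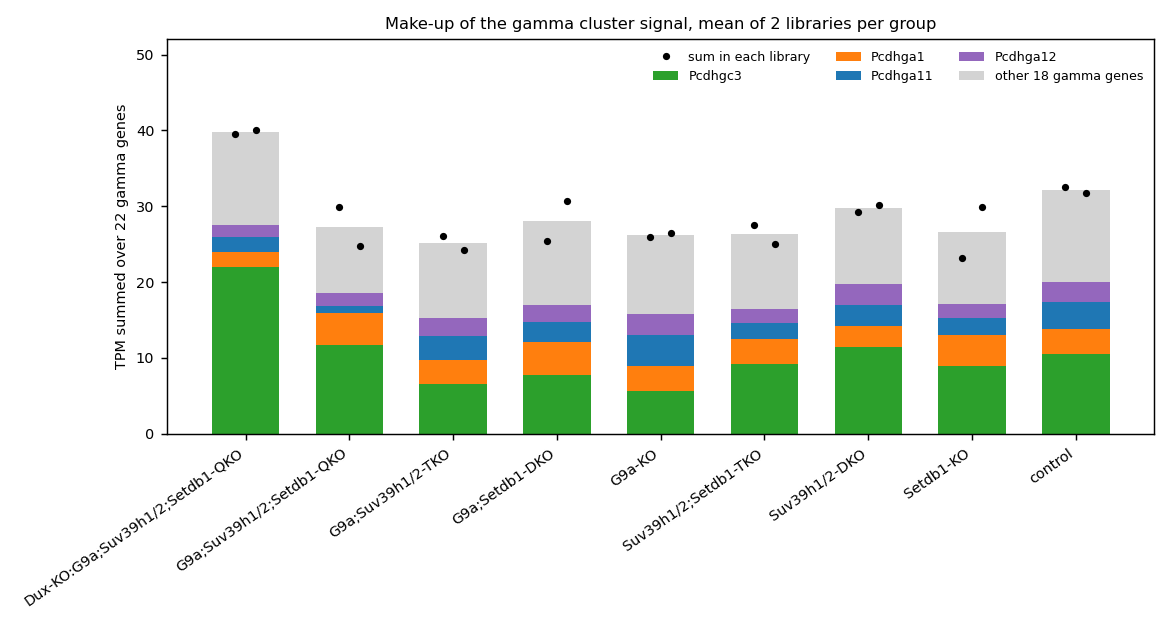
TPM summed over the 22 gamma genes, mean of 2 libraries per group (bars) split by gene, with the sum in each library as points and control at the right. Averaged over the 2 libraries, Pcdhgc3 makes up 55.1% of the sum in Dux-KO QKO and 32.7% in control, and Pcdhga11 makes up 3.52% in QKO and 11.1% in control.

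The make-up of the gamma cluster differed between quadruple knockout cells without and with Dux. The titles give these cells different line names, so that line and loss of Dux cannot be told apart. Pcdhga1 was 2.60 and 1.35 TPM in Dux-KO QKO, against 4.49 and 3.99 TPM in QKO (log2 fold change -0.85, SE 0.18, adjusted p = 0.0020, limma). Pcdhgc3 was 19.64 and 24.23 TPM in Dux-KO QKO, against 12.98 and 10.35 TPM in QKO (log2 fold change 0.86, SE 0.19, adjusted p = 0.0024, limma). Pcdhgc3 made up 49.6% and 60.6% of the gamma sum in Dux-KO QKO, against 43.5% and 41.9% in QKO, and Pcdhga1 made up 6.57% and 3.38% against 15.1% and 16.1%. Pcdhga11 was 1.75 and 2.26 TPM in Dux-KO QKO, above QKO (log2 fold change 0.63, adjusted p = 0.0062, limma) and below control (log2 fold change -0.61, adjusted p = 0.0052, limma). Pcdhgb7 was 1.14 and 1.02 TPM in Dux-KO QKO, against 0.47 and 0.37 TPM in QKO (log2 fold change 0.55, adjusted p = 0.017, limma). Pcdhga4 and Pcdhgb2, which were tested through their Dux-KO QKO values, had log2 fold changes of 0.42 and 0.56, given as a description. None of the 12 members reached the fold threshold, and 6 had an unadjusted p below 0.05 (limma), or 4 of the 8 that did not pass the filter through 1 group, beside backgrounds of 6.54% called and 41.5% past the adjusted p alone. The median of all genes was 0.22 in this comparison and 0.02 after rescaling by median ratios, so that each of these values is to be read against that shift. The 2 Dux-KO QKO libraries differed for several members, for example 2.83 and 0.79 TPM for Pcdhga2 and 0.74 and 0 TPM for Pcdhgb8.

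Other measures moved with the same libraries. The 9 markers of the 2-cell programme summed to 86.7 and 88.8 TPM in Dux-KO QKO, against 5881 and 6052 TPM in QKO. Their sum was 1378 and 1549 TPM in Setdb1-KO and 2550 and 2719 TPM in G9a;Setdb1-DKO, against 72.6 and 80.7 TPM in control. Primitive endoderm and trophoblast markers summed to 270 and 266 TPM in Dux-KO QKO, against 127 and 112 TPM in QKO. Their part in the Pcdhga1 and Pcdhgc3 values was not tested. Against control, Dux-KO QKO had higher Pcdhgc3 (log2 fold change 0.99, adjusted p = 0.00041, limma). Pcdhga1, Pcdhga10, Pcdhga11 and Pcdhga12 were lower by the adjusted p, with log2 fold changes of -0.46 to -0.61. As a description, Pcdhga4 was 1.36 and 1.47 TPM in Dux-KO QKO, against 0.55 and 0.43 TPM in control, and Pcdhgb2 was 1.36 and 1.56 TPM against 0.95 and 0.55 TPM.

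Alpha and beta values were under 1 TPM everywhere, and the alpha sums of the knockout table were highest in the quadruple knockouts. The summed alpha genes were at 0.552 and 0.428 TPM in Dux-KO QKO and 0.308 and 0.278 TPM in QKO, against 0.043 and 0.069 TPM in control. The summed beta genes were at 0.659 and 0.911 TPM in QKO, against 0.363 and 0.272 TPM in control, and 1 Setdb1-KO library reached 0.823 TPM. Pcdhb9 stood out, with 0.185 and 0.367 TPM in QKO, and was listed at 0 in both control and both G9a;Suv39h1/2-TKO libraries and at 0 and 0.054 TPM in Dux-KO QKO. These genes were below the filter and were tested in the fit without it. There 3 of 36 alpha and beta rows passed the adjusted p in QKO against control: Pcdhb9 (log2 fold change 0.35, adjusted p = 0.0004, limma), Pcdhac2 and Pcdhb10, and none reached a log2 fold change of 1. The background of that rule in the same fit was 39.9% of 19896 genes. In Tet-on-Dux QKO Pcdhb9 was at 0 and 0.058 TPM with doxycycline and listed at 0 in both libraries without it. The Tet-on-Dux sums did not repeat this. Without doxycycline the beta sums were 0.152 and 0.060 TPM in QKO, against 0.223 and 0.370 TPM in control, and the alpha sums overlapped, at 0.279 and 0.124 TPM in QKO, against 0.196 and 0.159 TPM in control. Pcdha1 had a mean of 0.091 TPM in Tet-on-Dux QKO without doxycycline and was listed at 0 in its control (adjusted p = 0.012, limma without the filter).

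In the Tet-on-Dux lines without doxycycline, 0 of 8 tested members were called in any genotype against the Tet-on-Dux control (limma). The counts at an unadjusted p below 0.05 were 0 in Setdb1-KO, 0 in Suv39h1/2-DKO, 2 in Suv39h1/2;Setdb1-TKO, 0 in G9a-KO, 0 in G9a;Setdb1-DKO, 1 in G9a;Suv39h1/2-TKO and 1 in QKO. The backgrounds of calls over 13817 genes were 2.52%, 1.56%, 3.49%, 7.98%, 13.2%, 6.61% and 14% in the same order. Pcdhga11 again had its lowest values in QKO, at 0.31 and 0.91 TPM, against 1.52 and 2.40 TPM in control (log2 fold change -0.89, SE 0.29, adjusted p = 0.023, limma). That was the 1 member past the adjusted p alone, beside a background of 34.3%. Without control replicate 2 or QKO replicate 1 the adjusted p was 0.17 and 0.23 (limma). Against Tet-on-Dux G9a;Suv39h1/2-TKO, which had 0.78 and 1.49 TPM, the libraries overlapped (log2 fold change -0.41, adjusted p = 0.52, limma). The 3 steps of Setdb1 loss within the Suv39h1/2-DKO, G9a-KO and G9a;Suv39h1/2-TKO lines called 0 members, with 0, 0 and 0 at an unadjusted p below 0.05 (limma). Their backgrounds of calls were 1.64%, 4.96% and 3.31%. The differences between Setdb1 steps called 0 members, with 0, 1 and 0 at an unadjusted p below 0.05 (limma). Of all genes, 0%, 0.637% and 0.449% were called in them. Pcdhgc3 was 9.21 and 6.70 TPM in Tet-on-Dux G9a-KO, against 10.97 and 9.75 TPM in its control (log2 fold change -0.36, adjusted p = 0.21, limma).

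Among the Tet-on-Dux libraries, 6 of 32 stood apart in their level of small nucleolar RNA host genes (Snhg), long non-coding RNAs. Their mean level on the log2(TPM+1) scale was 4.16 to 4.61, against 2.40 to 3.26 in the others, and each shared its group with a library of low level. All 18 libraries of the knockout table, which was normalised separately, were at 4.30 to 4.87. The 6 were control replicate 1, Setdb1-KO replicate 2 and G9a;Setdb1-DKO replicate 2 without doxycycline, and Setdb1-KO, G9a-KO and G9a;Setdb1-DKO replicate 2 with it. Pcdhga1 was higher in the high library of the pair in 6 of 6 groups, and Pcdhga2, Pcdhga7 and Pcdhga12 each in 5 of 6. Pcdhgc3 was higher in it in 3 of 6 and Pcdhga11 in 1 of 6. Without these libraries Pcdhga11 had a log2 fold change of -1.10 in QKO against control and was called, but control is then replicate 2 alone, at 2.40 TPM, and is assumed to vary like the other groups.

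Doxycycline went with more Pcdhga1 and less Pcdhgc3 in most lines, in no case past the test. Pcdhga1 was 5.21 and 5.50 TPM with doxycycline in G9a-KO, against 3.28 and 1.64 TPM without (log2 fold change 0.92, SE 0.28, adjusted p = 0.18, limma). In G9a;Setdb1-DKO it was 4.01 and 5.15 TPM with doxycycline, against 2.08 and 2.68 TPM without (log2 fold change 0.72, adjusted p = 0.16, limma). In QKO it was 3.68 and 4.76 TPM with doxycycline, against 2.24 and 2.3 TPM without (log2 fold change 0.67, adjusted p = 0.26, limma). Its mean was higher with doxycycline in 8 of 8 lines, and libraries did not overlap in 5 of 8. The share of all genes without overlap was not counted in these lines. In the control and Setdb1-KO lines, which had the lower dose label, the libraries overlapped and the sign turned when 1 library was left out. As a share of the gamma sum, Pcdhga1 was 29.5% and 30.2% with doxycycline in QKO, against 13.4% and 12.5% without. That share was higher in both doxycycline libraries than in both others in 6 of 8 lines.

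Pcdhgc3 was 5.26 and 5.18 TPM with doxycycline in QKO, against 8.44 and 10.02 TPM without (log2 fold change -0.71, SE 0.20, adjusted p = 0.082, limma). The adjusted p was 0.030 in the fit without the 6 libraries of high Snhg level, an alternative added after seeing the data, and 0.45 after rescaling by median ratios. In G9a;Setdb1-DKO it was 7.29 and 4.64 TPM with doxycycline, against 10.14 and 8.51 TPM without (log2 fold change -0.59, adjusted p = 0.095, limma). Its mean was lower with doxycycline in 7 of 8 lines and higher in Suv39h1/2;Setdb1-TKO, at 13.52 and 14.33 TPM against 13.11 and 13.45 TPM. Pcdhga12 was 0.64 and 0.98 TPM with doxycycline in G9a;Setdb1-DKO, against 1.94 and 2.27 TPM without (log2 fold change -0.78, adjusted p = 0.047, limma), the 1 member past the adjusted p alone, beside a background of 3.59%. The median of all genes was -0.21 with doxycycline in QKO and -0.22 in G9a;Setdb1-DKO, and close to 0 after rescaling by median ratios. After rescaling, Pcdhga1 passed the adjusted p in G9a-KO (0.042) and G9a;Setdb1-DKO (0.045, limma), with log2 fold changes of 0.91 and 0.90. The 2-cell markers summed to 4738 and 5086 TPM with doxycycline in QKO, against 354 and 317 TPM without, and primitive endoderm and trophoblast markers to 84.2 and 100.02 TPM, against 165 and 186 TPM. Their part in the members' values was not tested.

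No member was called for doxycycline in any of the 8 lines, with 0, 0, 0, 1, 1, 4, 0 and 2 at an unadjusted p below 0.05 in control, Setdb1-KO, Suv39h1/2-DKO, Suv39h1/2;Setdb1-TKO, G9a-KO, G9a;Setdb1-DKO, G9a;Suv39h1/2-TKO and QKO (limma). The backgrounds of calls in the same order were 0.181%, 0.166%, 0.449%, 0.246%, 0.955%, 1.05%, 0.456% and 0.413%. They do not apply to the counts at an unadjusted p. Doxycycline responses were compared between lines with and without Setdb1 at the same dose label. The 4 tests called 0 members and had 0, 0, 1 and 0 at an unadjusted p below 0.05 (limma). In each, 0% of all genes were called. The interval of the difference for Pcdhga1 between QKO and G9a;Suv39h1/2-TKO ran from -0.56 to 1.12 on the log2 scale, a range that holds differences of more than 1 as well as 0.

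**Figure D5:**
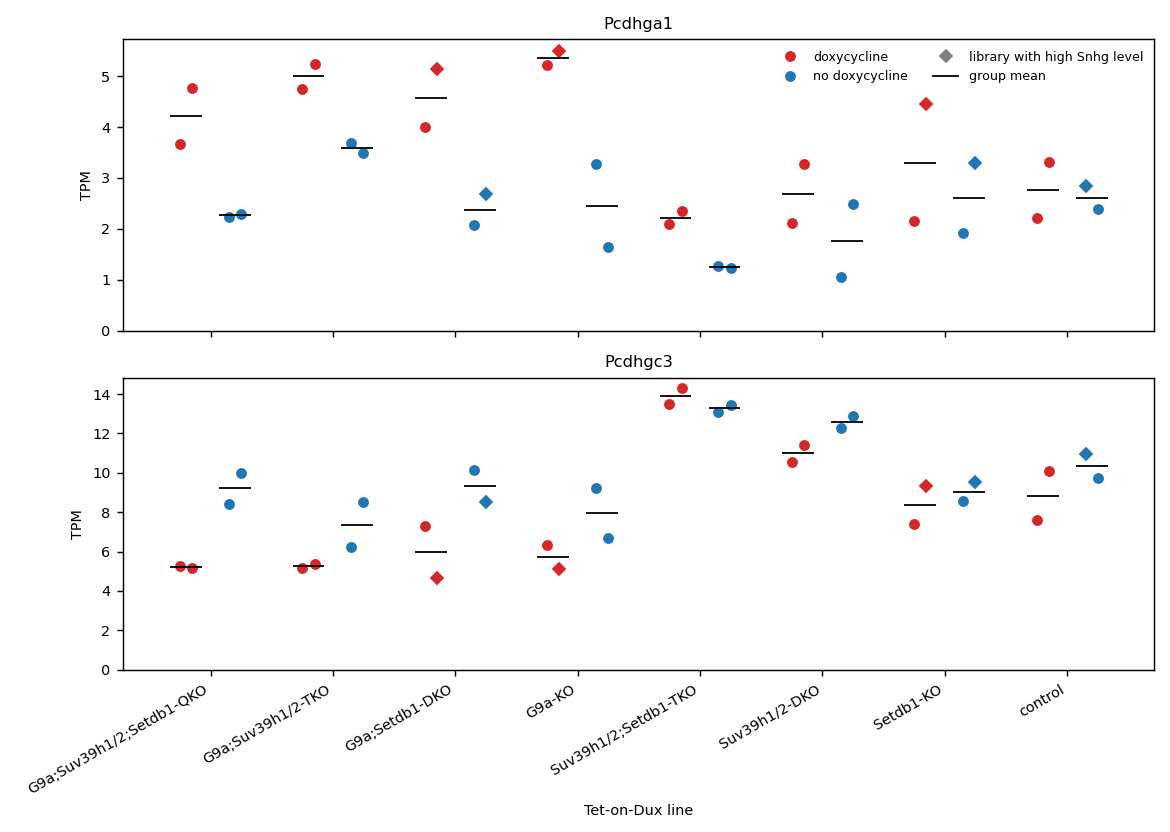
TPM of Pcdhga1 (top) and Pcdhgc3 (bottom) in the Tet-on-Dux lines, with doxycycline (red, left in each pair) and without (blue), lines indicating group means and diamonds the 6 libraries of high Snhg level. Control is at the right. In QKO, Pcdhga1 is at 3.68 and 4.76 TPM with doxycycline and 2.24 and 2.3 TPM without, and Pcdhgc3 at 5.26 and 5.18 TPM with it and 8.44 and 10.02 TPM without.

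Protocadherins outside the clusters included genes that rose. Of 12 nonclustered protocadherins, 5 were tested in the knockout table, and 2 rose and 0 fell in QKO against control, 1 and 0 in Setdb1-KO and 1 and 0 in G9a-KO. The share of all genes called was 15.6%, 6.28% and 9.26% in these comparisons. Pcdh8 and Pcdh9 were under 1 TPM in control and passed the filter through other groups. The filter thus favoured a rise over a fall for them. The 7 untested genes never reached 1 TPM in the knockout table. Pcdh8, a delta-type protocadherin that takes part in adhesion during gastrulation and at synapses, rose to 17.4 and 12.9 TPM in QKO, against 0.174 and 0.118 TPM in control (log2 fold change 3.81, adjusted p = 1.7e-11, limma). It also rose in Setdb1-KO, to 3.77 and 4.36 TPM (log2 fold change 2.14). Pcdh9 rose to 1.71 and 1.65 TPM in QKO, against 0.112 and 0.223 TPM in control (log2 fold change 1.20), and Pcdh19 rose in G9a-KO (log2 fold change 1.02).

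Of 20 genes beside the clusters on chromosome 18, 19 were tested, and 0 rose and 1 fell in QKO against control, with a median log2 fold change of -0.36 beside -0.05 for all genes. Dnd1, an RNA-binding protein of germ cells, was at 3.87 and 3.14 TPM in QKO, against 15.6 and 15.6 TPM in control (log2 fold change -1.89, adjusted p = 7.7e-07, limma). Taf7, an intronless transcription factor gene between the beta and gamma clusters, was at 93.4 and 101 TPM in QKO, against 76.9 and 86.3 TPM in control, and was not called. Of 34 genes for chromatin architecture and silencing, 3 rose and 2 fell in QKO, a share near the 15.6% of all genes called. The 3 were Lrif1, a partner of Smchd1, with a log2 fold change of 1.78, Atf7ip, a partner of Setdb1, with 1.49, and Dnmt3l, with 1.18, and the 2 were Ehmt2 and Suv39h1, which are among the targeted genes. Ctcf was at 111 and 107 TPM in QKO, against 129 and 134 TPM in control, and Smchd1 at 29.3 and 30.5 TPM against 35.4 and 40.0 TPM, neither called. Of 17 partners and signalling genes 16 were tested, and 2 rose, the kinase gene Ptk2b and the membrane-linked Marcks, and 0 fell. Of 11 neural markers tested, 1 rose and 4 fell in QKO. The 20 neural markers summed to 351 and 313 TPM in QKO, against 482 and 460 TPM in control. Of all genes, 15.6% were called in QKO against control, the share to set beside each of these lists.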

How the data were processed

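RNA from mouse embryonic stem cells was sequenced from stranded mRNA libraries as paired-end reads, per the labels' protocols. The deposited values are gene TPM in tables of 18 and 32 columns. The submitters' processing notes name STAR 2.7.10b, Bowtie2 2.3.4.1, RSEM 1.3.1, SAMtools 1.9 and the genome build mm10, with no roles. The sources used here do not give the gene annotation or the division of reads over shared exons. Column names tied each of the 50 samples to its column.

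Values were fitted as log2(TPM+1) with limma 3.58.1 (lmFit, eBayes with a trend) in R 4.3.3, all groups of a table in 1 fit without covariates, over genes that reached 1 TPM in 2 or more libraries (13862 and 13817). P-values were two-sided and adjusted by Benjamini-Hochberg over these genes. A call needed an adjusted p under 0.05 with a log2 fold change of 1 or more in either direction. The fit was tested on simulated data. Errors are SE of the fit. Positions came from RefSeq GRCm38.p6 and shared exons from GENCODE M21 (GRCm38).

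Members named by rule were called members without overlap between groups and the most abundant uncalled member of each subcluster. Other members are named by their adjusted p, after seeing values. Members, lists and tests were chosen with earlier results of these data known. Alternatives were a pseudocount of 0.1 TPM, no filter, median ratio scaling, a replicate block and each library left out. Added once values had been seen were fits of the Tet-on-Dux table that left out the 6 libraries with a mean log2 Snhg level over 4 or took this class as a covariate. Sequences of the members are not shown.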

Additional observations from a re-analysis of the deposited data

Results flagged for a closer look

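The effect of losing Setdb1 on Pcdhgc3 differed between backgrounds. The log2 fold change was 0.75 in QKO against G9a;Suv39h1/2-TKO and -0.24 in Setdb1-KO against control, a difference of 0.99 (SE 0.27, adjusted p = 0.024, limma), which marked it for a second look. The values were 12.98 and 10.35 TPM in QKO, against 7.46 and 5.63 TPM in G9a;Suv39h1/2-TKO, and 7.25 and 10.62 TPM in Setdb1-KO, against 10.50 and 10.56 TPM in control. The 2 Setdb1-KO libraries differed from each other, and without the first of them the difference was 0.74 (adjusted p = 0.10, limma). The adjusted p was also above 0.05 without QKO replicate 1 (0.092), without G9a;Suv39h1/2-TKO replicate 2 (0.10) and without control replicate 1 (0.070) or 2 (0.073). The cause of the difference was not tested.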

How the results depend on the processing

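The count of members called was compared over the alternatives. With a pseudocount of 0.1 TPM it was 1 in Setdb1-KO against control, 3 in QKO against control, 4 in Dux-KO QKO against QKO, 3 in Dux-KO QKO against control, 1 in the difference of Setdb1 effects with and without G9a and Suv39h1/2 loss, 1 in Tet-on-Dux QKO against its control and 1 for doxycycline in Tet-on-Dux G9a;Setdb1-DKO. With median ratio scaling it was 1 in Dux-KO QKO against QKO. Without the 6 libraries of high Snhg level it was 1 in Tet-on-Dux QKO against its control, which then has 1 library. With 1 library left out it ran from 0 to 2 in Dux-KO QKO against QKO and against control, and from 0 to 1 in the difference of Setdb1 effects and in Tet-on-Dux QKO against its control. All other counts were as reported. Pcdhga11 kept its call in QKO against control and against G9a;Suv39h1/2-TKO under every alternative, with log2 fold changes of -1.13 to -1.84 and of -1.01 to -1.69. Of 34 member differences past the adjusted p, 28 to 30 stayed past it under the pseudocount, filter and scaling alternatives, 27 lost it with some library left out, and none changed sign. These 34 include differences of genes that passed the filter through 1 group, some of which the filter favoured. Doxycycline values of Pcdhga1 turned sign with 1 library left out, with a range of -0.16 to 0.26 in control and of -0.16 to 0.63 in Setdb1-KO, and values of Pcdhgc3 in Setdb1-KO had a range of -0.26 to 0.043. Samples with the same replicate number deviated together in many but not all pairs of groups, with a positive correlation above 0.1 in 25 of 36 and 66 of 120. The median correlation was 0.27 in the knockout table and 0.12 in the Tet-on-Dux table. The main fit did not take the numbers as pairs. With a replicate block the counts of members called were 1 in QKO against control, 1 in QKO against G9a;Suv39h1/2-TKO and 0 elsewhere, as without it. The depth behind the TPM is unknown, values under 1 TPM rest on few reads, and the cause of these shifts was not tested.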
